A study of Mus musculus with 12 samples.

Results

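The genes described here are the adrenergic receptor and cyclic AMP genes of the mouse heart, a set of 9 chosen by name: the receptors *Adra1a*, *Adra1b* and *Adrb1*, the adenylyl cyclases *Adcy5* and *Adcy6*, the phosphodiesterases *Pde3a*, *Pde4b* and *Pde4d*, and the protein kinase A subunit *Prkar1a*. Their members are the H3K27ac-enriched regions that touch the gene body or the 5 kb on either side of it, by the GENCODE M21 annotation on genome build GRCm38. These windows held 134 of the 53754 regions listed for control cardiomyocytes (CMs) and 129 of the 45521 regions listed for RIP140-null CMs, so 263 regions in both lists were described. The genes were not chosen from these regions, but they were chosen with earlier results of these data known.

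Adrenergic signaling is how the sympathetic nervous system raises the rate and force of the heartbeat. In CMs, noradrenaline bound to the β1 receptor activates the stimulatory G protein, which turns on adenylyl cyclase, and the cyclic AMP that is made releases the catalytic subunits of protein kinase A (PKA), while phosphodiesterases (PDEs) break cyclic AMP down and confine it to parts of the cell. The α1 receptors act through another G protein and phospholipase C, and both arms are known for their part in cardiac hypertrophy and failure. Acetylation of histone H3 at lysine 27 (H3K27ac) marks active promoters and enhancers. RIP140, the product of *Nrip1*, is a corepressor of nuclear receptors.

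The question of the experiment was where H3K27ac differs once CMs lack RIP140. H3K27ac was profiled by CUT&RUN, in which an antibody guides a nuclease to cut out the chromatin around the mark, in CMs isolated from csNrip1-/- mice (Nrip1 f/f Cre+) and from their littermate controls (Nrip1 f/f Cre-). Mice were 10 to 12 weeks old and on a C57BL/6J background, and each genotype had 3 H3K27ac and 3 IgG replicates, 12 samples in all. The groups share the floxed *Nrip1* alleles and differ in the Cre transgene, which the cardiac NKX2.5 promoter drives, so that loss of RIP140 and the presence of Cre cannot be told apart.

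Each genotype was represented by a single list of regions found in at least 2 of its 3 replicates. A region of only 1 list may therefore still have been called in 1 replicate of the other genotype. The lists hold positions and no signal, the depth of the libraries is unknown, and there is no replicate value from which an error or a test could be computed, so all differences between genotypes are given as descriptions beside their background over all protein-coding genes. The control list had more and narrower regions (median width 1846 bp, 151.3 Mb covered in all) than the KO list (median 2291 bp, 154.2 Mb). The last exon of *Nrip1* on chromosome 16, between positions 76287400 and 76295015, had 2904 bp in control regions and 0 bp in KO regions. All 10 CM marker genes had regions in both lists, with their whole window covered at *Pln* (18321 bp in each). Endothelial markers were covered in both lists as well (5 of 5 genes, 65816 bp in control and 77614 bp in KO), although 2 of them were more than 1.5-fold shorter in KO, *Cdh5* (5079 bp and 1743 bp) and *Tie1* (2498 bp and 1645 bp). Of the leukocyte markers 4 of 5, among them *Ptprc* and *Csf1r*, were at 0 in both lists, and *Cd68* had 1173 bp in control and 4128 bp in KO. Of the fibroblast markers 3 of 5 were at 0 in both. Smooth muscle markers had 12815 bp in control and 9053 bp in KO, with *Acta2* at 5289 bp and 1472 bp and *Myh11* at 7526 bp and 7581 bp. Of the 4 skeletal muscle markers 2 were at 0 in both, *Actn3* had 542 bp in control alone and *Mylpf* had 4788 bp in KO alone. In such cell populations a change in the number of cells of a type and a change per cell cannot be told apart, and the part of endothelial, leukocyte or smooth muscle nuclei in the values below was not tested.

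The chromatin of the 9 genes was marked in both genotypes, and most of it was marked in the same places. Of the KO regions, 97 overlapped a control region by at least 1 bp (shared) and 32 did not (KO-only), which is 24.8% beside 20.7% of the KO regions in the windows of all protein-coding genes. Of the control regions, 92 were shared and 42 were control-only, which is 31.3% beside a background of 27%. Both shares thus stood a few percentage points above those of all genes. Among the 74 regions of 1 genotype alone, 43.2% were KO-only. That order turned when the control list was limited to its 45521 widest regions, the number in the KO list, with 36 KO-only and 28 control-only regions (56.2% KO-only).

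**Figure D1:**
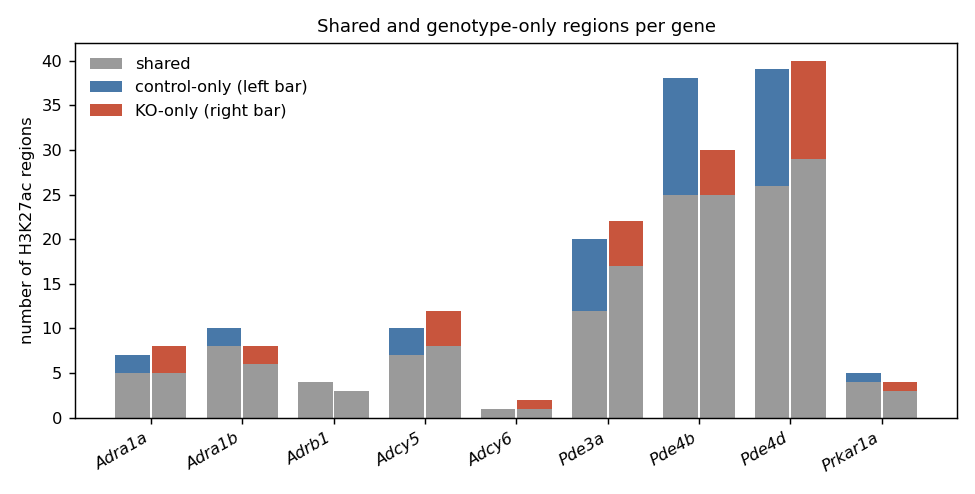
The bars count H3K27ac regions at each of the 9 genes, control on the left and KO on the right of each pair, divided into shared regions and regions of 1 genotype alone. Pde4b and Pde4d had the most regions (30 to 40 per list), and Adrb1 had shared regions only.

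The length of DNA inside H3K27ac regions, called covered length below and clipped to the window, was summed for each gene. The 9 windows, 2836067 bp in all, had 524394 bp covered in control and 478651 bp in KO, a log2 ratio of KO to control of -0.13 where the sum over all protein-coding genes gave 0.06. Of these lengths, 376869 bp were covered in both lists. By gene, 5 of the 9 had more covered length in KO and 4 had less, with a median log2 ratio of 0.04 beside 0.08 over the 12989 protein-coding genes covered in both lists. None of the 9 was past 1.5-fold in either direction, where 16.3% of all genes were past it toward longer and 8.60% toward shorter in KO. Ratios spread less among the 1677 genes with at least 20000 bp covered in either list, with a 10th percentile of -0.32 and a 90th of 0.43. The members of that size lay between these values. The 4 genes with less covered length were *Pde3a*, *Pde4b*, *Adra1b* and *Pde4d*, which also had the most covered length among the 9 in either list. A link between length and ratio was not tested.

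**Figure D2:**
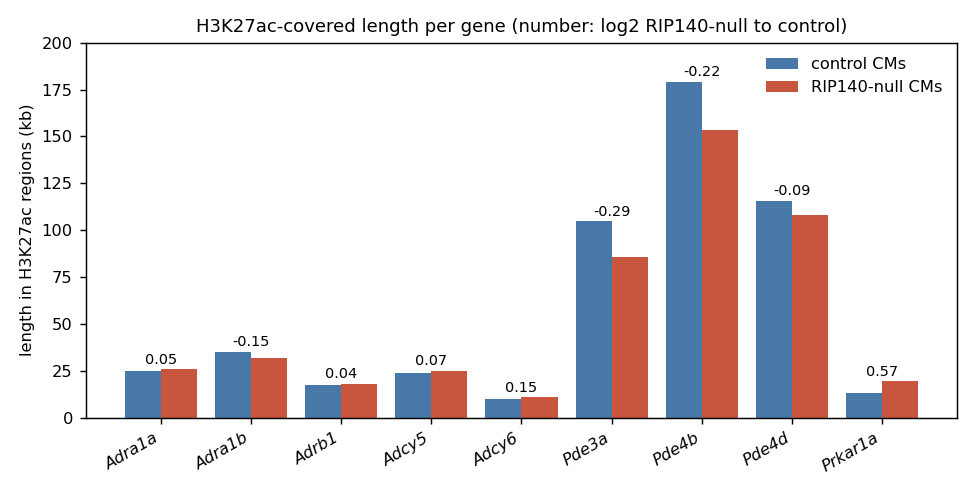
The bars give the length inside H3K27ac regions (kb) at each gene and 5 kb on either side, for control and RIP140-null CMs, with the log2 ratio above each pair and no error bar because each genotype has a single list. Pde4b went from 179152 bp to 153435 bp and Prkar1a from 13177 bp to 19508 bp.

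The receptor genes were marked over nearly the same length in both genotypes (77865 bp in control and 75644 bp in KO, log2 -0.04), and their start sites differed between lists at *Adra1a* alone. Covered length does not measure the amount of H3K27ac. The authors compared tag counts and assigned regions to the nearest gene, not to the windows used here. They named *Adra1a* and *Adrb1* among genes associated with increased H3K27ac in RIP140-null CMs. The genes they named there were also ones whose RNA fell less in RIP140-deficient hearts after aortic constriction with infarction. *Adrb1* encodes the β1 receptor, the main route by which noradrenaline drives the heartbeat. It is a short gene on the plus strand (ENSMUSG00000035283, chr19:56722199-56733113) and was the most densely marked of the 9, with 17548 bp or 83.9% of its window covered in control and 18025 bp or 86.2% in KO (log2 0.04). Its 4 control regions and 3 KO regions were all shared, and 94.7% of the control length was also covered in KO. The control list had a 965 bp region ending 9 bp past the gene start and a separate region of 10296 bp over the gene body, where the KO list had a single region of 12565 bp from position -1774 to 10790 relative to the start. Most of the body of *Adrb1* was thus marked in both, and the gap just behind the start was in the control list alone.

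The promoter of *Adrb1* is shown as an example of a start covered in both lists. It is chr19:56721867-56722166 on the plus strand of GRCm38, from RefSeq as are the other promoters below, and is printed 5′ to 3′. This window ends upstream of the GENCODE start at position 56722199. It is 72.3% G and C with 28 CpG sites, and the capitals mark TGACG, the core of the cyclic AMP response element (CRE).
Adrb1 promoter: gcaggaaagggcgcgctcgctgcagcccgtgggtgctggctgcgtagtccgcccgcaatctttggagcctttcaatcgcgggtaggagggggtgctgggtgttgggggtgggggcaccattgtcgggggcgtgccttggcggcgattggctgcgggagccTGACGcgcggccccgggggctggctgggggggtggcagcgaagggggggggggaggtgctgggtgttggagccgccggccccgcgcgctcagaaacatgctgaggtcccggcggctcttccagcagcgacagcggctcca

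*Adra1a* encodes the α1A receptor, and it was the gene whose start was marked in control alone. It lies on the plus strand (ENSMUSG00000045875, chr14:66635251-66771168), with 7 control and 8 KO regions, 24974 bp covered in control and 25786 bp in KO (log2 0.05), and 77.0% of the control length also covered in KO. All 6 of its annotated start sites, which lie within 305 bp of each other, sat inside a control-only region of 1735 bp (chr14:66634866-66636600). The first KO region began 16009 bp downstream of the gene start, inside the intron. Start sites listed in control alone were uncommon genome-wide, at 5.59% of the 44473 start sites covered in either list, but the 6 here rest on 1 region of 2 subpeaks. Farther into the gene, a shared region was 882 bp wide in control and 2844 bp in KO (log2 1.69), and 3 small KO-only regions of 636 to 924 bp appeared in introns. The marked length of *Adra1a* was therefore alike in both lists, while its start was covered in control alone.

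*Adra1b* encodes the α1B receptor and lies on the minus strand (ENSMUSG00000050541, chr11:43774606-43901210). It had 35343 bp covered in control and 31833 bp in KO (log2 -0.15), in 10 and 8 regions. Its upstream start was in neither list, with the nearest region 10175 bp away in control and 10114 bp away in KO, whereas a start 64878 bp downstream was in both, in a region of 1149 bp in control and 4413 bp in KO. That KO region also spanned a stretch that was a separate 1334 bp region in control. The widest regions of the gene lay downstream of this internal start, at 11423 bp in control and 13037 bp in KO. The control-only regions, 2281 bp and 1350 bp wide, were intronic. Of the KO-only ones, that of 930 bp was intronic and that of 1359 bp lay across the end of the gene.

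The promoters at both starts of *Adra1b* are shown because they differ in base composition as well as in marking. The internal one, chr11:43836440-43836739, is 71.3% G and C with 28 CpG sites and was covered along its 300 bases in both lists. Its window lies upstream of the internal GENCODE start at position 43836332 and does not hold it. The upstream one, chr11:43901188-43901487, is 42.3% G and C with 3 CpG sites and was covered in neither. Both are on the minus strand and printed 5′ to 3′ with no capitals, as no searched motif matched.
Adra1b internal promoter: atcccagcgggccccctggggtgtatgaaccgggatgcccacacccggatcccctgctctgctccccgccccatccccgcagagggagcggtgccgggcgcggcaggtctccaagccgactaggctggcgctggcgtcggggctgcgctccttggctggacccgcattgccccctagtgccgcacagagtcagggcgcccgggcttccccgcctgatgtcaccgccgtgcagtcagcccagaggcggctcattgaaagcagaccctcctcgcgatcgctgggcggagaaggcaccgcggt
Adra1b upstream promoter: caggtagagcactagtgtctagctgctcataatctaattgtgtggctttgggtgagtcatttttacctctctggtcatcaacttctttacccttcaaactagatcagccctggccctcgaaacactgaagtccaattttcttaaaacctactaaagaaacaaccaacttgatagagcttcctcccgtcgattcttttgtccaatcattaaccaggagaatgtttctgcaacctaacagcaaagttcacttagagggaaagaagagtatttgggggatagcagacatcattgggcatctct

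The adenylyl cyclases, the enzymes that make cyclic AMP, had slightly more covered length in KO (33882 bp in control, 36137 bp in KO, log2 0.09). *Adcy5* and *Adcy6* encode the main cyclase isoforms of CMs. *Adcy5* (ENSMUSG00000022840, chr16:35154877-35305738, plus strand) had 24009 bp covered in control and 25175 bp in KO (log2 0.07), yet 59.0% of the control length and 56.3% of the KO length were covered in the other list, so that similar lengths lay in part at different positions. Its gene start lay in a KO-only region of 1395 bp (chr16:35154263-35155657), followed by a second KO-only region of 1993 bp beginning 2602 bp into the gene. The nearest control region began 19738 bp downstream. Start sites listed in KO alone made up 12.4% of start sites covered in either list. *Adcy5* and *Adra1a* were thus the 2 genes of the set whose upstream start was in 1 list only, in opposite directions.

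Inside *Adcy5*, a shared region 3626 bp wide in control was 8371 bp wide in KO (log2 1.21), while others narrowed, from 1535 bp to 796 bp and from 4699 bp to 2938 bp. A control-only region of 3220 bp, among the widest of its kind in the set, lay 76016 bp into the gene. *Adcy6* (ENSMUSG00000022994, chr15:98589973-98610076, minus strand) showed a simpler picture, with a broad region over the gene start of 9873 bp in control and 9491 bp in KO that held 5 of its 7 start sites. A KO-only region of 1471 bp at the end of the gene, in an exon, made its covered length 9873 bp in control and 10962 bp in KO (log2 0.15). The window of *Adcy6* also holds part of 4930415O20Rik, which these values include.

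The promoter of *Adcy5* is shown because its whole length lay inside the KO-only region and outside all control regions. It is chr16:35154614-35154913 on the plus strand, 79.0% G and C with 44 CpG sites, and none of the searched motifs matched.
Adcy5 promoter: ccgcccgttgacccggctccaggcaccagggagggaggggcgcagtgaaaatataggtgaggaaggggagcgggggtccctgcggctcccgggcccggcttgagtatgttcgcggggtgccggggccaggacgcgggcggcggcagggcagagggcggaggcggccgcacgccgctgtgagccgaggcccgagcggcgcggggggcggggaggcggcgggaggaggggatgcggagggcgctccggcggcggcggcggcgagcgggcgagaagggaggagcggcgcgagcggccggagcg

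The 3 PDE genes of the set, whose enzymes break down cyclic AMP, held most of its marked chromatin. They had less of it in KO, with 399470 bp covered in control and 347362 bp in KO (log2 -0.20). Of their control regions 34 of 97 (35.1%) were control-only, and of their KO regions 21 of 92 (22.8%) were KO-only. The larger share among control regions has the same order as in the whole lists, where 29.5% of control and 21.5% of KO regions were in 1 list only. All 3 genes are long, so their many regions lie on the same stretches of DNA and are not independent of each other. Other PDE genes did not share the lower length in KO. The 14 of them examined had 264733 bp covered in control and 274226 bp in KO. Among the 11 covered in both lists the median log2 ratio was 0.07, with 1 more than 1.5-fold longer and 1 shorter in KO.

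*Pde3a* encodes a phosphodiesterase that cyclic GMP inhibits and that is the target of inotropic drugs such as milrinone. It had the lowest log2 ratio of the 9 genes, -0.29, from 104709 bp in control to 85621 bp in KO (ENSMUSG00000041741, chr6:141249269-141507448, plus strand). This ratio was at percentile 19.3 among all genes and 12.5 among the 1677 genes with at least 20000 bp covered. Its start stood in one of the broadest regions of either list, 32950 bp in control (rank 42 by width) and 29363 bp in KO (rank 109). Of its 11 shared loci (regions merged across lists) 2 were more than 1.5-fold narrower in KO and 0 were wider, the largest shift being from 3901 bp to 1017 bp (log2 -1.94), and 8 control-only regions stood against 5 KO-only ones. Those 8 included the widest control-only region of the set, 3797 bp in an intron (chr6:141440776-141444572), and a pair near the end of the gene that lay 36268 bp and 37870 bp from the nearest KO region.

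*Pde4b* and *Pde4d* encode PDE4 enzymes, which are specific for cyclic AMP and exist as long and short forms made from different start sites. *Pde4b* (ENSMUSG00000028525, chr4:102087543-102607259, plus strand) had the most covered length of the set, 179152 bp in control and 153435 bp in KO (log2 -0.22, percentile 23.4 among all genes and 17.3 among those with at least 20000 bp). Of its 38 control regions 13 were control-only, and of its 30 KO regions 5 were KO-only. Of 18 shared loci 3 were narrower in KO, among them one that went from 3320 bp to 1019 bp (log2 -1.70), and 0 were wider. The marking of its starts did not differ between lists, with 7 of 13 in both and 6 in neither. The most upstream start was in neither list, the starts 167199 to 167687 bp downstream lay in a region of 4909 bp in control and 6855 bp in KO, and those 482552 to 502300 bp downstream lay in a very broad region of 28163 bp in control and 28621 bp in KO. The gene was thus marked most broadly in both genotypes over the starts nearest its end.

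*Pde4d* is the longest gene of the set (ENSMUSG00000021699, chr13:108449948-109953461, plus strand), and its marked share was the smallest, 7.64% of the window in control and 7.16% in KO. It had 115609 bp covered in control and 108306 bp in KO (log2 -0.09). Nearly equal numbers of its regions were in 1 list alone, 13 of 39 in control and 11 of 40 in KO, and its 26 shared loci went both ways, 7 wider and 5 narrower in KO. Of its 20 start sites 9 were in both lists and 11 in neither. Its broadest control region, 26040 bp over the starts near the end of the gene, corresponded in KO to separate regions, among them one of 3610 bp at the starts 1453154 and 1453158 bp downstream, one of 13947 bp between, and one of 1909 bp at the start 1472963 bp downstream. A KO region of 4703 bp stood where control had 2386 bp at the start 1182832 bp downstream (log2 0.98).

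*Prkar1a* encodes the regulatory subunit RIα, which holds the catalytic subunits of PKA inactive until cyclic AMP binds. It had the highest log2 ratio of the 9 genes, 0.57, from 13177 bp in control to 19508 bp in KO (ENSMUSG00000020612, chr11:109649405-109669656, plus strand). That is 1.48-fold, at percentile 83.1 among all genes. Set among the genes with at least 20000 bp covered, a length it fell just short of, the ratio was at percentile 94.5. All 3 start sites of its coding transcripts were covered in both lists, in a region of 5992 bp in control and 8515 bp in KO. The KO region took in a stretch upstream that was a separate 1504 bp region in control. The largest log2 ratio of any shared locus in the set lay downstream of that region, with 649 bp in control and 4369 bp in KO (log2 2.75). The control region (chr11:109659800-109660448) and the KO region (chr11:109655553-109659921) overlapped there only at their ends. Of the KO length of the gene, 50.6% was also covered in control. A noncoding start 16539 bp into the gene was in a KO region of 4600 bp and in no control region, while 1 control-only region of 1511 bp lay in an intron. The ratio depended on where the window ended: it was 0.67 for the gene body alone and 0.26 with 20 kb on either side, and the 5 kb window also holds part of *Fam20a*.

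The promoter of *Prkar1a* at the last of its coding starts is shown because it holds the palindromic CRE, TGACGTCA, to which the PKA-activated factor CREB is known to bind. It is chr11:109650699-109650998 on the plus strand, 62.7% G and C with 25 CpG sites, and was covered along its 300 bases in both lists. The capitals mark the CRE and, upstream of it, a further TGACG.
Prkar1a promoter: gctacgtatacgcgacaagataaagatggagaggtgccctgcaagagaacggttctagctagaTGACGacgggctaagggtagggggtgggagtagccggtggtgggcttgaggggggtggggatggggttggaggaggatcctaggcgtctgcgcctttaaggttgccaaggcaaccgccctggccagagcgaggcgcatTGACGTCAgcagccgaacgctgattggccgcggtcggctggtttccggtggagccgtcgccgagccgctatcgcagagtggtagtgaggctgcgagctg

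**Figure D3:**
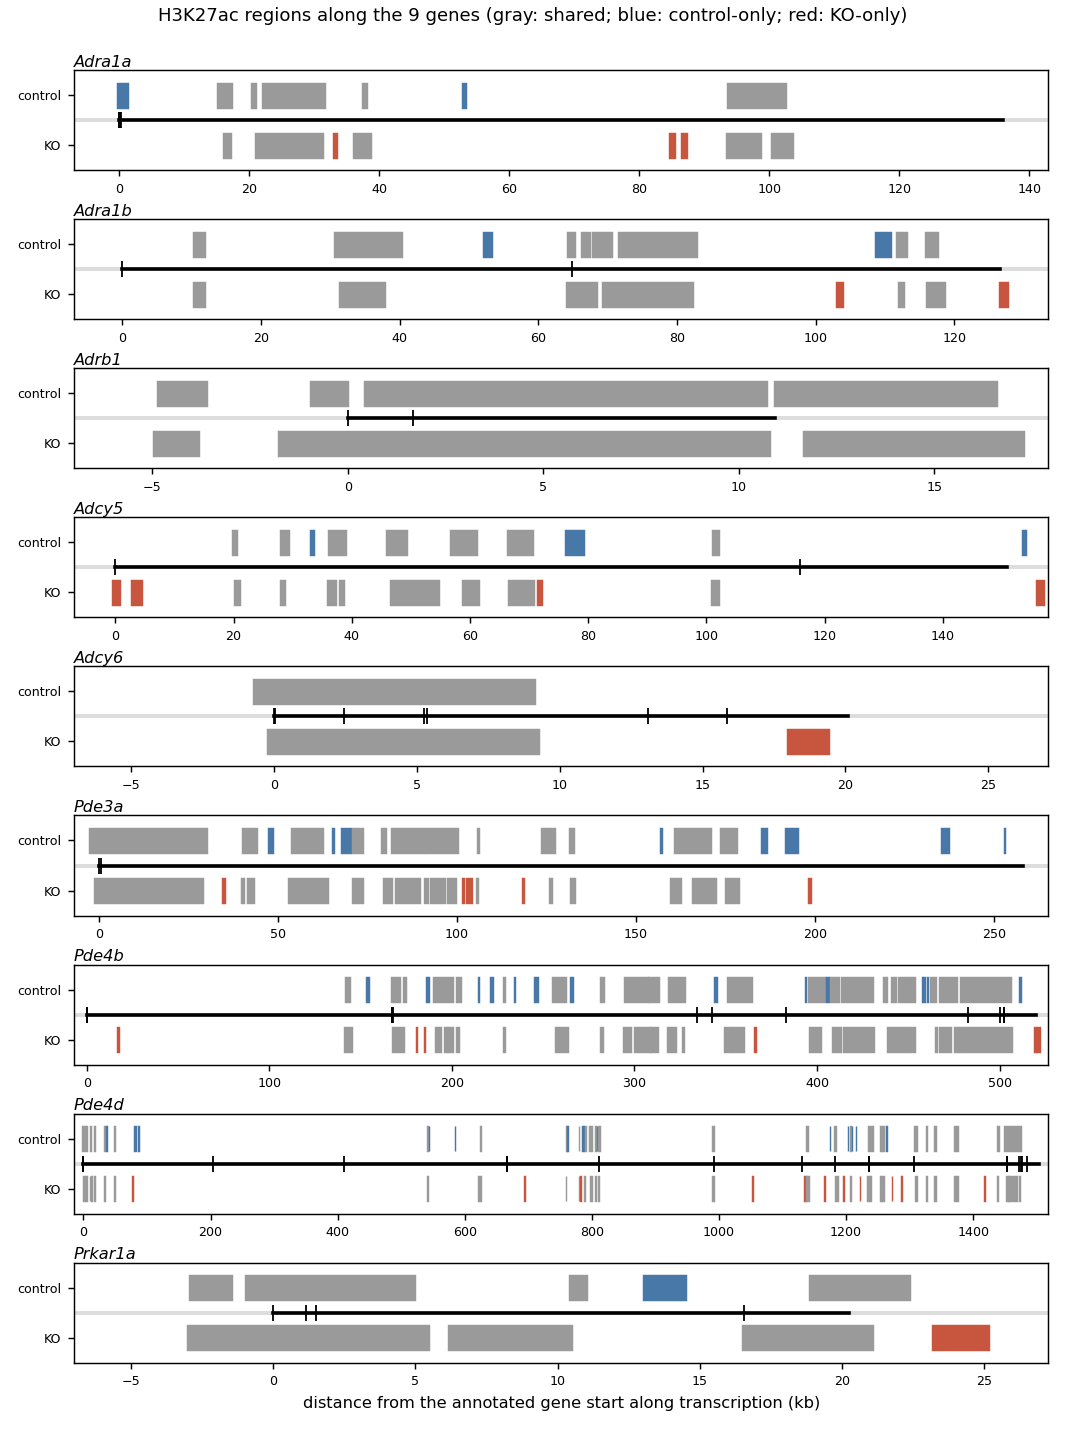
Each panel maps one gene by distance from its start along transcription (kb), with control regions above the line and KO regions below, the gene in black with ticks at annotated start sites, and the regions divided into shared, control-only and KO-only. The start of Adra1a lies in a control-only region, that of Adcy5 in a KO-only region, and the body of Adrb1 is covered nearly throughout in both.

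Across the set, the regions of 1 genotype alone were narrower than the shared ones and, like them, mostly intronic. A wider region has more room to overlap the other list by 1 bp, so the difference in width follows in part from the rule. The median width was 1264 bp in the control-only class (525 to 3797 bp) and 1045 bp in the KO-only class (547 to 3080 bp), beside medians of 2992.0 bp and 3122.0 bp for the shared regions of the same lists. By the place of their center or the start they held, 39 of 42 control-only and 26 of 32 KO-only regions were intronic, much as among the shared regions (72 of 92 in control and 79 of 97 in KO), and 1 of each held a start site, those of *Adra1a* and *Adcy5*. Few subpeaks had been merged into them, with 3 or more in 4 of the control-only and 3 of the KO-only regions. Of the shared regions, 42 in control and 41 in KO had 3 or more. Where each subpeak is the call of 1 replicate, a region of 2 subpeaks just meets the rule of 2 of 3 replicates. The nearest region of the other list was a median 3551.5 bp away for control-only and 5216.5 bp for KO-only regions, and 6 and 5 of them had one within 1000 bp.

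At least 1 KO-only region was present at 8 of the 9 genes, all but *Adrb1*, beside 35.2% of the protein-coding genes with any region. Regions of control alone were seen at 7 genes, all but *Adrb1* and *Adcy6*, beside 39.2%. As long genes with many regions have more chances to hold such a region, these backgrounds are low for this set. Of the 58 annotated start sites 63.8% were in either list, beside 47.6% of the 93513 start sites of protein-coding genes: 29 were in both, 6 in control alone, 2 in KO alone and 21 in neither. Of the 78 shared loci, 10 (12.8%) were more than 1.5-fold wider in KO and 14 (17.9%) narrower, where the backgrounds were 17.6% and 9.58%. The median log2 ratio of these loci was -0.06 beside 0.09 over all shared loci. In the set, narrower loci thus outnumbered wider ones, the reverse of the order over all genes. Most of the 78 loci lie in *Pde4d* (26), *Pde4b* (18) and *Pde3a* (11), and loci of a gene are not independent, so this order is a description only. The wider loci were in *Pde4d* (7), *Adra1a*, *Adcy5* and *Prkar1a* (1 each). The narrower ones were in *Pde4d* (5), *Pde4b* (3), *Pde3a* and *Adcy5* (2 each), and *Adra1a* and *Adra1b* (1 each).

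Sequence motifs of factors known in CMs were counted in the central 300 bases of each region, on both strands. The CRE was present in 1 of 134 control regions (0.746%, beside 0.441% of all control regions) and 0 of 129 KO regions (beside 0.540%), the match being in a shared region of *Pde4d*. Its core TGACG, which the CRE contains, was present in 12 control regions (8.96%, background 11.7%) and 14 KO regions (10.9%, background 12.6%). The motif TCAAGGTCA, bound by the estrogen-related receptors, was found in 1 control region (background 0.973%), at *Pde4b*, and 0 KO regions (background 1.04%). The CRE of *Pde4d* and this site of *Pde4b* also lay inside KO regions, but outside the central 300 bases that were searched. Their absence from the KO counts is therefore not a loss of marking at these sites. GATA motifs (AGATAAG) were in 8 control (5.97%, background 4.69%) and 8 KO regions (6.20%, background 4.42%), and these included 4 of the 42 control-only regions (9.52%) and 5 of the 32 KO-only regions (15.6%). With so few matches no difference from all regions can be read from these shares. Of 6 genes of the set RefSeq promoter sequences were matched, 15 in all, and *Adra1a*, *Adcy6* and *Pde3a* were not among them. The CRE was in 2 of the 15, overlapping windows of *Prkar1a* that share a single copy, beside 1.79% of 32851 promoters, and TGACG was in 5 (33.3%, background 20.8%).

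MEF2 motifs, bound by a family of factors that drive muscle genes, were in 3 control regions (2.24%, background 1.63%) and 2 KO regions (1.55%, background 1.56%). The 3 of these that lay in regions of 1 genotype alone, all intronic, are shown with 40 bases on either side, on the plus strand and 5′ to 3′. Capitals mark the MEF2 match, and at the control-only site of *Pde4d* also a GATA match on the minus strand that follows it directly. The site of *Pde3a* is chr6:141318310-141318399, and those of *Pde4d* are chr13:109713993-109714082 in a control-only and chr13:109722023-109722112 in a KO-only region.
Pde3a control-only site: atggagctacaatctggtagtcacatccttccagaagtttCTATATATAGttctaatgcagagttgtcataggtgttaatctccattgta
Pde4d control-only site: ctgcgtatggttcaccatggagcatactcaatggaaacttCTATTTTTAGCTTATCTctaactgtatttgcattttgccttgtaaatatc
Pde4d KO-only site: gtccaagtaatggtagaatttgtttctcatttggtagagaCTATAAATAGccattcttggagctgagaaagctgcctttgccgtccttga

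The other genes of the pathway give the setting of the 9. Of 71 further receptors, G proteins, cyclases, PDEs, PKA subunits, anchoring proteins, arrestins and cyclic AMP effectors, 59 had regions in both lists, 1 in control alone (*Adrb3*, the β3 receptor, with 967 bp) and 11 in neither. The α2 receptor genes *Adra2a*, *Adra2b* and *Adra2c* and the cyclases *Adcy1*, *Adcy2* and *Adcy3* were among those in neither. Of the 59, 9 (15.3%) were more than 1.5-fold longer in KO and 5 (8.47%) shorter, close to the 16.3% and 8.60% of all genes, with a median log2 ratio of 0.06. The pathway as a whole therefore differed between lists no more often than other genes.

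Among those with at least 2000 bp covered in either list, the highest ratios were at *Crtc1*, a coactivator of CREB (854 bp in control, 3605 bp in KO, log2 2.08), and *Prkar2b*, another PKA regulatory subunit (1362 bp, 4506 bp, log2 1.73). They were followed by *Gnao1*, which encodes an inhibitory-type G protein subunit (log2 1.49), the anchoring protein gene *Akap8* (1.26) and the phosphodiesterase gene *Pde8b* (1.24). Among the lowest ratios were those of *Akap5* (2791 bp in control, 1162 bp in KO, log2 -1.26), *Akap12* (-1.14), *Akap7* (-1.02) and the phosphodiesterase gene *Pde9a* (-0.88). A-kinase anchoring proteins hold PKA at its sites in the cell. Of the 10 A-kinase anchoring protein genes, 3 were more than 1.5-fold shorter in KO and 1 was longer, beside backgrounds of 8.60% and 16.3%. As this group was singled out after its values were seen, these backgrounds cannot show that it stands apart.

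**Figure D4:**
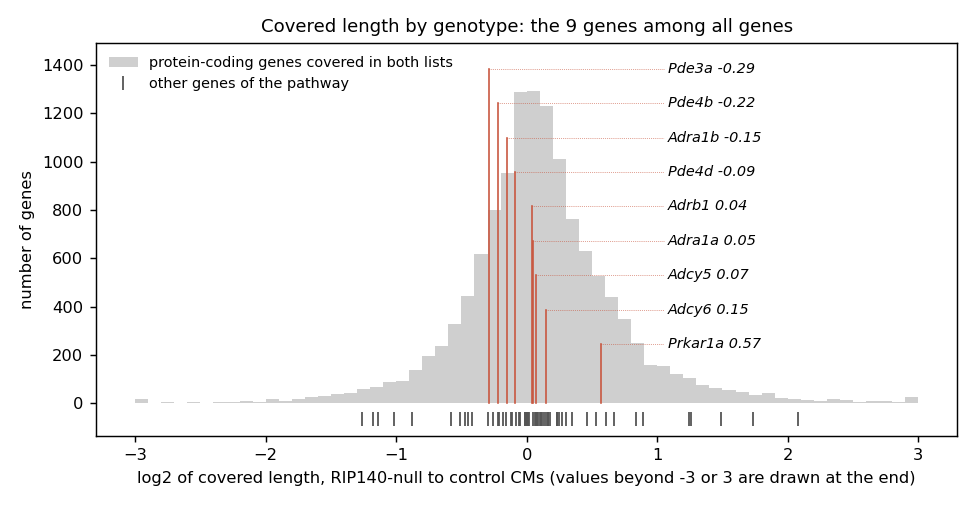
The histogram counts protein-coding genes covered in both lists by the log2 ratio of covered length, RIP140-null to control, with values beyond the axis drawn at its ends. Red lines mark the 9 genes, from Pde3a at -0.29 to Prkar1a at 0.57, and the ticks below mark the other genes of the pathway; the height of a red line has no meaning. Over all genes the 10th percentile was -0.53 and the 90th 0.78, and the 9 genes lay between them. Over genes with at least 20000 bp covered, these percentiles were -0.32 and 0.43, and Prkar1a lay above the latter.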

How the data were processed

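Isolated CMs (200000 per experiment) were profiled by CUT&RUN. Per the submitters' processing notes and methods, the authors used bowtie2 2.4.2 for alignment to GRCm38 and samtools to remove duplicates. They called regions of each replicate against IgG with Homer 4.11.1 and merged the regions of the replicates. They deposited 1 list of positions in bp per genotype, keeping regions in at least 2 of 3 replicates. The name of each merged region ends in its number of subpeaks. Every region has the same score, which was not used. Replicate calls, tag counts and IgG signal were not analysed here.

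Only chromosomes 1 to 19, X and Y were used, which left out 21 control and 14 KO regions. Shared regions overlapped by at least 1 bp, covered length was clipped to the window, and loci merged overlapping regions across lists. A fold of 1.5 set the calls. No p-value was computed, and with 2 lists no likeness between patterns of genes. Computations used Python 3.11.15, numpy 2.4.6 and pysam 0.24.0, and overlaps were tested on simulated data. The gene set and the lists of pathway and marker genes were chosen with earlier results of these data known. All 9 genes were named. Of the other pathway genes, those named had the 5 highest and 5 lowest ratios among genes with at least 2000 bp covered in either list and some in both, or regions in 1 list only, and the result for 1 of them is not reported here.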

Additional observations from a re-analysis of the deposited data

How the results depend on the processing

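With a reciprocal overlap of 50% required, the 9 genes had 74 regions of KO alone and 79 of control alone in place of 32 and 42. Restricted to regions with 3 or more subpeaks, the counts were 11 and 16, and to regions at least 1000 bp wide, 19 KO-only. Counts under the remaining settings were within 1.5 times those reported, and control-only regions outnumbered KO-only ones except with equal numbers of the widest regions. The summed log2 ratio of -0.13 was -0.15 with regions at least 1000 bp wide, -0.09 with equal numbers of the widest regions, -0.16 with 3 or more subpeaks, -0.14 for gene bodies with no extension, -0.13 with 20 kb on either side and -0.13 with regions assigned to the nearest protein-coding start. Per gene, 27 of 27 ratios under 3 of the alternatives kept their sign, and the largest shift was 0.30 (*Prkar1a*, 20 kb). *Prkar1a* passed 1.5-fold with regions at least 1000 bp wide (0.64) and for the gene body (0.67). No paired analysis was possible because each list merges its replicates, and no replicate could be left out for the same reason. The depth of the libraries is unknown, and its part in either list was not tested.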
